A study of Mus musculus with 208 samples.

Results

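The receptors of the interleukin-6 (IL-6) family, the ligand cardiotrophin 1, the transcription factor STAT3 and its inhibitor SOCS3 were followed in the left ventricle (LV) of mice of the HMDP, the Hybrid Mouse Diversity Panel of inbred strains. The members were all probes of the genes Osmr, Il6st, Il6ra, Il11ra1, Lifr, Ctf1, Stat3 and Socs3 by the gene symbol of the platform annotation. Of the 8 genes, 7 were found, with 11 of the 25697 gene probes of the array. Il11ra1 had no probe under that symbol and was not analysed here.

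The panel combines classical inbred strains with recombinant inbred (RI) strains of the AXB/BXA, BXD, BXH and CXB families, and was made to map natural variation of traits. All mice were female, no engineered allele was named, and the labels give the tissue as LV of 10 weeks of age. ISO hearts came from mice given isoproterenol, a non-selective β-adrenergic agonist, at 30 μg per g of body weight per day for 3 weeks, and control hearts from untreated mice. Each of 208 arrays, split about evenly between control and ISO, held RNA pooled from mice of a strain, and 87 strains had both conditions. The panel therefore gives a value for a strain and not for an animal, and the spread between mice of a strain was not measured.

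Cytokines of the IL-6 family signal through the shared receptor chain gp130, which pairs with a chain that recognizes the ligand. The receptor activates JAK kinases, these phosphorylate STAT3, and STAT3 enters the nucleus and raises its targets. One of these targets is Socs3, whose protein binds gp130 and the JAK kinases and shuts the signal down. In the heart the pathway is known for its part in cardiomyocyte survival and hypertrophy and in the response of fibroblasts to injury.

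Levels are log2 intensities after background correction and quantile normalization, so a difference of 1 is a 2-fold change, and levels of different probes were not set against each other. ISO was compared with control by limma with strain as a block, and a probe was called at a Benjamini-Hochberg adjusted p-value under 0.05 over all probes and an absolute log2 fold change over 0.2 (14.9% for an increase). At these thresholds 7.25% of all probes were called, 3.72% as higher and 3.53% as lower in ISO.

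Several features of the arrays bear on every value below. Between 28.9% and 50.3% of the probes of an array were detected, and 5 arrays, 3 control and 2 ISO, stood apart by low connectivity with the other arrays of their condition. The arrays fell into 3 sets of BeadChips, here called set 1, 2 and 3, with 24, 52 and 16 strains measured in both conditions within them. Most control and ISO arrays of a strain shared a BeadChip. The odd positions of a BeadChip (A, C, E, G) held 99 control and 5 ISO arrays and the even ones (B, D, F, H) 7 control and 97 ISO arrays, so position and treatment cannot be told apart. Each array was centred on its condition's mean, and the control and ISO arrays of a strain on a shared BeadChip then correlated at a median of 0.608 (88 pairs, leaving out BeadChips 12, 23 and 24, whose strain labels earlier results of these data put in doubt). Between repeat arrays of the same strain and condition on different BeadChips it was -0.162 (12 pairs). A shared strain and a shared BeadChip therefore cannot be told apart in a control and ISO pair.

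With ISO, 4 of the 11 member probes were called. Socs3, Osmr and 1 of the 3 probes of Stat3 were higher and Ctf1 was lower. The probes of Il6st, Il6ra and Lifr and the other 2 probes of Stat3 did not pass. Without BeadChips 12, 23 and 24 the 4 called probes passed as well, with log2 fold changes of 0.80 for Socs3, 0.23 for Osmr, 0.38 for Stat3 and -0.24 for Ctf1. Of the 11 probes 3 were called higher against 3.72% of all probes, a small number on which no test was run. Many of all probes were not detected. In a fit of detected probes only, 3 of 10 member probes were called higher, against 942 of 11735 probes.

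Socs3, the feedback inhibitor, had the largest change of the members. Its control level was between 6.44 and 8.53 over the 87 strains (median 7.0), and its ISO level between 6.52 and 10.13 (median 7.71). The groups overlapped, with 14 ISO strains above the highest control strain and 80 of 87 above the control median. The log2 fold change of Socs3 was 0.75 (SE 0.08, 67.7% higher, adjusted p-value = 6.55e-13, limma), and 77 of 87 strains were higher with ISO. The change was 1.52 times the SD of the control level between strains.

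The response of Socs3 ranged widely between strains. The largest differences were those of AXB-19/PgnJ (2.68, from 7.45 to 10.13) and AXB-20/PgnJ (2.40, from 7.09 to 9.49), and the ISO array of AXB-19/PgnJ is among those of low connectivity. BXH-6/TyJ had the largest decrease (-1.04, from 8.53 to 7.49), which starts from the highest control level, and it lies on BeadChip 24, one of those with doubtful strain labels. Socs3 was higher in each set of BeadChips, by 0.72 (SE 0.16) in set 1, 0.83 (SE 0.09) in set 2 and 0.56 (SE 0.19) in set 3, and the responses of the 3 sets did not pass a moderated F test (adjusted p-value = 0.641, limma). Set 3 alone did not reach the threshold (adjusted p-value = 0.231, or 0.0961 with a fold change of 0.78 without BeadChip 24, limma).

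**Figure D1:**
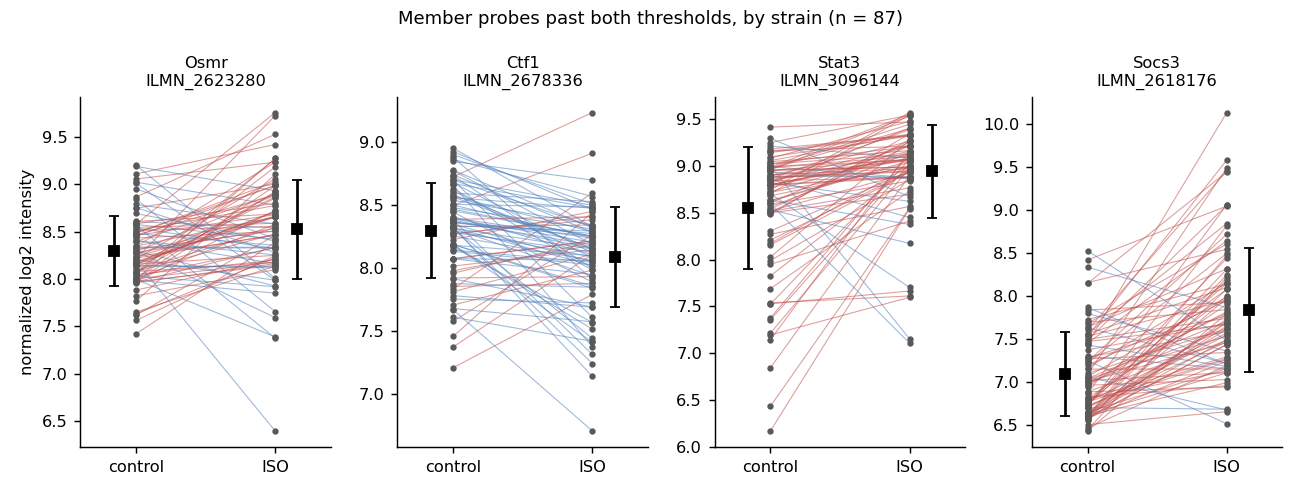
Normalized log2 intensity of the 4 called member probes in the control and ISO hearts of 87 strains, with a line for each strain (red where higher and blue where lower with ISO) and squares with bars for the mean ± SD over strains. Socs3 is higher with ISO in 77 strains, Stat3 at the probe shown in 75 and Osmr in 60, and Ctf1 is lower in 66.

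The promoters of the members were searched for the STAT-type motif TTCNNNGAA, which reads the same on both strands, in RefSeq promoters (GRCm38.p6) from 250 bases before to 50 after the start. Socs3 was the only member with a match, 154 bases before its start, at chr11:117969501-117969530 on the minus strand. This start lies inside the full extent of Socs3 in the same annotation, so the match is before this start but not before the gene's outermost one. The motif was also in the promoters of Icam1 (42 bases before the start, chr9:21015888-21015917, plus strand) and Fgl2 (36 bases, chr5:21372627-21372656, plus strand), which are known as STAT3 targets and rose with ISO. The 30 bases around each match are given here so that the matches can be compared, with the motif in capitals.
Socs3: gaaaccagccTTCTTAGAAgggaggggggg
Icam1: ggcgcgaggtTTCCCGGAAagtggccccga
Fgl2: gcccgcccttTTCTGGGAActcagaacgcc
Of all 32851 promoters, 8.30% hold the motif, and 3 of the 24 promoters of the list of STAT3 targets do, the third being that of Reg3b, which was detected on 2 arrays. A match describes the letters of this window and is not a binding site.

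Osmr, the receptor chain for oncostatin M, was higher with ISO, and its response differed between the sets of BeadChips. Its control level was between 7.42 and 9.20 (median 8.24) and its ISO level between 6.40 and 9.75 (median 8.54). The groups overlapped almost fully, with 8 ISO strains above the highest and 3 below the lowest control strain. At Osmr limma gave a log2 fold change of 0.22 (SE 0.06, 16.9% higher, adjusted p-value = 0.00584), and 60 of 87 strains were higher.

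Within sets the direction of Osmr was not the same. The fold change was 0.44 (SE 0.07, adjusted p-value = 3.89e-07) in set 2 and 0.08 (SE 0.16) in set 3, but -0.21 (SE 0.12, adjusted p-value = 0.418, limma) in set 1. With each strain in a single set, 10 of 24, 40 of 48 and 8 of 15 strains were higher, and the responses of the sets differed (adjusted p-value = 0.00288, limma), as they did for 13.2% of all probes. SJL/J had the largest decrease (-1.79, from 8.19 to 6.40) and AXB-20/PgnJ the largest increase (1.51, from 8.21 to 9.72).

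Il6st, the gene of gp130, did not pass with ISO (limma gave -0.10 with an SE of 0.13 at an adjusted p-value of 0.709), and 43 of 87 strains were higher. Its levels fell into a low and a high range with few arrays between them. Over all arrays the widest gap between neighboring values was from 6.88 to 7.79, a width of 0.91, and the next widest gap was 0.32. Of the control arrays 42 lay below it and 64 above, and of the ISO arrays 41 below and 61 above. The probe was detected on all 125 arrays above the gap and on 46 of the 83 below it, so that many low values are not above background.

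The 2 ranges were compared between arrays of the same strain. Of 92 control and ISO pairs on the same BeadChip, 83 lay on the same side of the gap. Of the 9 others, 7 had the higher value in control, among them KK/HlJ on BeadChip 19, whose strain labels are also in doubt (9.62 in control and 5.36 in ISO), and C57BL/6J on the first BeadChip (8.90 and 5.20). Of 22 pairs of repeat arrays on different BeadChips, 15 lay on the same side, and 9 of 12 where BeadChips 12, 23 and 24 were left out. The repeats of C57BL/6J show the discrepancy within an inbred strain, as its ISO hearts had 5.20 on one array and 9.25 on the other, and its control hearts 8.90 and 9.20.

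The share of arrays in the high range was 79.5% in the BXD strains (62 of 78 arrays), 55% in the AXB/BXA (22 of 40), 55.6% in the BXH (5 of 9), 46.3% in the classical (31 of 67) and 35.7% in the CXB strains (5 of 14). By set of BeadChips it was 21 of 48 arrays in set 1, 78 of 112 in set 2 and 26 of 48 in set 3. Of the BXD arrays 55 were in set 2, of which 46 were in the high range, against 4 of 8 in set 1 and 12 of 15 in set 3. The control level of Il6st did not pass over families (adjusted p-value = 0.401, limma). Of the parents of these families, A/J had values between 4.58 and 5.99 and BALB/cByJ 5.18 in control and 5.39 in ISO, whereas C3H/HeJ had 9.05 and 9.23. DBA/2J had 9.84 and 9.32 on BeadChip 19, whose strain labels are in doubt, but 7.79 and 4.56 on BeadChip 1. Of the 87 strains, 27 had every array in the low range, 47 every array in the high range and 13 arrays in both. As the strains fall into clusters, no correlation of Il6st over all of them is given. Control and ISO levels had a Pearson's r of 0.54 (permutation p = 0.00355, Spearman's rho 0.59, permutation p = 0.00167) among the strains of the low range and of 0.34 (permutation p = 0.0211, Spearman's rho 0.40, permutation p = 0.00563) among those of the high range. Without the 2 strains farthest from the median, r was 0.42 and 0.29. These groups were formed from the same arrays that are correlated, and the p-values are not adjusted. Most pairs share a BeadChip and many low values are not above background. The values therefore cannot show whether a strain keeps its level. Probes that span SNPs were removed in the study's own processing but are all kept here, and whether this probe spans one was not tested.

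**Figure D2:**
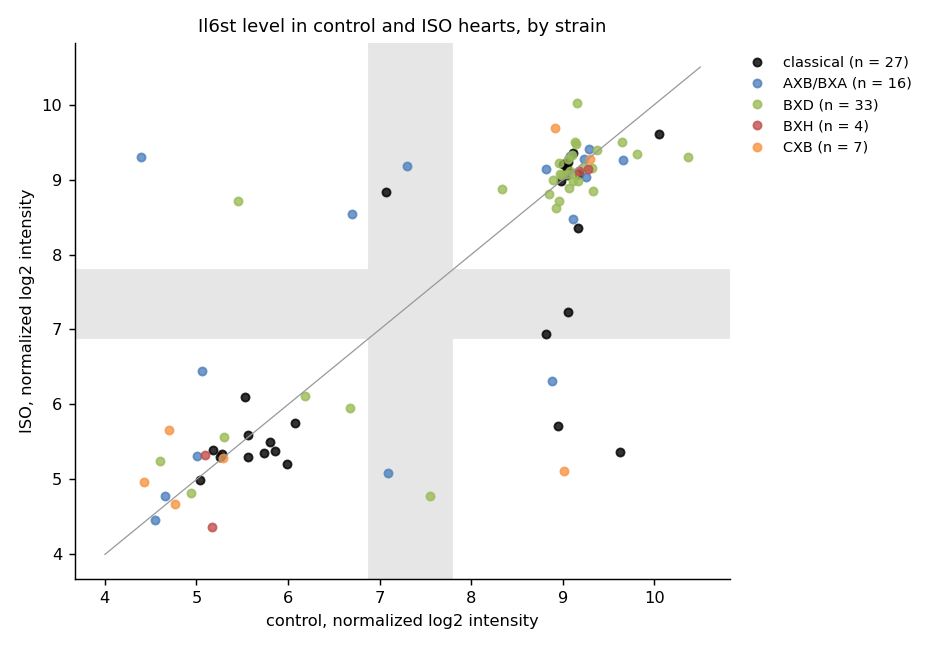
Normalized log2 intensity of Il6st in control (horizontal) and ISO (vertical) hearts, with a point for each of 87 strains, colored by strain family, the line of equality and a gray band for the gap between 6.88 and 7.79 found over single arrays. Strains lie mostly in a low cluster (27 strains with every array below the band) and a high cluster (47 with every array above it), and the other 13 have arrays on both sides.

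Il6ra, the receptor chain for IL-6, was detected on 28 control and 29 ISO arrays of 208 and was not above background on most. Its level was between 4.41 and 5.60 in control and 4.45 and 5.86 in ISO, and the fold change (-0.02, SE 0.04) is not informative at this signal. The 3 probes of Lifr, the receptor chain for leukemia inhibitory factor that also serves cardiotrophin 1, had fold changes of 0.01, 0.00 and -0.10 (adjusted p-values 0.934, 0.993 and 0.142). Of these, ILMN_1242960 was detected on 72 control and 75 ISO arrays and ILMN_2829015 on 74 and 62. ILMN_2829008 was detected on nearly all arrays, with levels between 5.26 and 8.15 in control (median 7.02) and 5.98 and 8.01 in ISO (median 6.85). Its response differed between the sets (adjusted p-value = 0.00656, limma), with a mean of -0.10 in set 1, -0.18 in set 2 and 0.51 in set 3. In a fit of set 2 alone its fold change was -0.15 (SE 0.05, adjusted p-value = 0.0328, limma), which is under the fold threshold.

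Ctf1, which encodes cardiotrophin 1, a ligand that signals through LIFR and gp130 and enlarges cardiomyocytes in culture, was lower with ISO. Its control level was between 7.21 and 8.95 (median 8.33) and its ISO level between 6.71 and 9.23 (median 8.15), and 19 of 87 ISO strains were above the control median. ISO changed Ctf1 by -0.21 on the log2 scale (SE 0.05, a change of -13.5%, adjusted p-value = 0.00032, limma), and 66 of 87 strains were lower. The value lies just past the fold threshold. It was -0.12 (SE 0.10), -0.30 (SE 0.06) and -0.08 (SE 0.10) in sets 1, 2 and 3, and the difference between the sets did not pass (adjusted p-value = 0.177). The largest decrease was that of BXD-66/RwwJ (-1.28) and the largest increase that of CBA/J (0.99).

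The 3 probes of Stat3 disagreed. At ILMN_3096144 the control level was between 6.17 and 9.42 (median 8.80) and the ISO level between 7.11 and 9.57 (median 9.05), the log2 fold change was 0.40 (SE 0.07, 31.6% higher, adjusted p-value = 1.05e-05, limma), and 75 of 87 strains were higher. At ILMN_2589790 the control level was between 9.87 and 11.62 (median 10.68), the ISO level between 10.18 and 11.90 (median 10.78), and the fold change of 0.14 (SE 0.05, 61 strains higher) did not pass (adjusted p-value = 0.0669). At ILMN_2698046 it was 0.07 (SE 0.05, adjusted p-value = 0.479). In set 2 alone all 3 probes passed, with fold changes of 0.36, 0.26 and 0.21 (adjusted p-values 4.79e-07, 2.8e-06 and 0.000254, limma). The response of ILMN_3096144 differed between the sets (adjusted p-value = 0.037, limma), with fold changes of 0.10 (SE 0.20) in set 1 and 0.90 (SE 0.24) in set 3, neither of which passed alone.

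Across strains, the response of ILMN_3096144 ran opposite to that of the other probes. It correlated at -0.43 with ILMN_2589790 and at -0.51 with ILMN_2698046, whereas these correlated at 0.72 with each other (adjusted permutation p = 5e-05, 1.2e-05 and 1.2e-05 over 6 pairs of probes of one gene, 87 strains). Without the 2 farthest strains the values were -0.31, -0.40 and 0.72. By Spearman's rho they were -0.21, -0.23 and 0.71 (adjusted permutation p = 0.0457, 0.0415 and 2e-05). In set 1 they were -0.24, -0.42 and 0.29, in set 2 -0.25, -0.32 and 0.78, and in set 3 -0.84, -0.92 and 0.94.

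The responses of 3 of the 11 member probes moved with the percent of probes detected on the ISO array minus that on the control array. For ILMN_3096144, 1 of the 3, r was 0.65 (Spearman's rho 0.42, adjusted permutation p = 0.00011 and 0.00044 over 11 probes). This relation was 0.79, 0.21 and 0.71 within the sets, and 0.51 without the 2 farthest strains. With the percent of probes detected as a covariate the fold change was 0.34 (SE 0.06, adjusted p-value = 9.69e-07, limma). The strains with the largest increases, AXB-4/PgnJ (2.37), AXB-6/PgnJ (2.12) and BXD-11/TyJ (2.05), started from low control levels of 6.17, 6.43 and 6.85, and the control arrays of the AXB strains are among those of low connectivity, as are the ISO arrays of AXB-19/PgnJ (-1.85) and NOD/LtJ (-1.49) with the largest decreases. Without the arrays of low connectivity the fold change was 0.40 (SE 0.06). The probes could not be placed on the transcripts here.

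**Figure D3:**
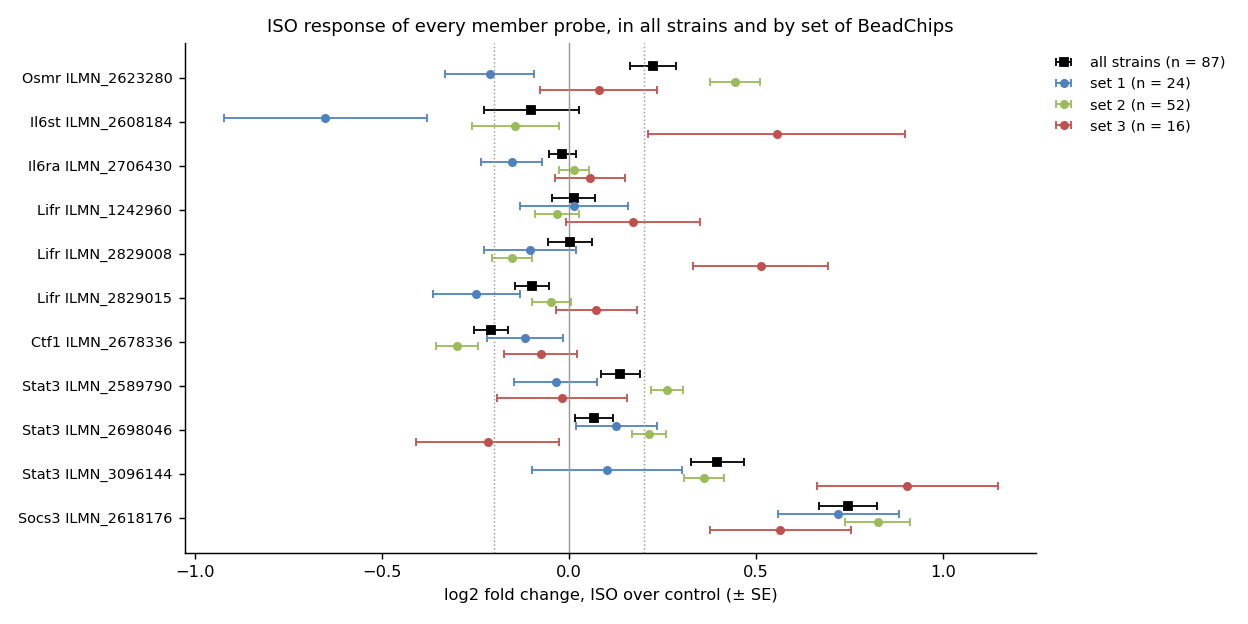
Log2 fold change of ISO over control (± SE) for the 11 member probes in all 87 strains (black squares) and within sets 1, 2 and 3 of BeadChips (blue, green and red points; 24, 52 and 16 strains), with dotted lines at the fold threshold of 0.2 in both directions. Socs3 and Stat3 at ILMN_3096144 are above 0 in each set, and Osmr is at -0.21, 0.44 and 0.08.

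None of the 11 probes passed a moderated F test of the ISO response over the 5 strain families (adjusted p-values 0.742 to 0.999, limma, with no probe under an unadjusted p-value of 0.05), and 0% of all probes did. The mean response of Socs3 was 0.71 (SD 0.68) in 27 classical strains, 0.71 (SD 1.02) in 16 AXB/BXA, 0.83 (SD 0.52) in 33 BXD, 0.96 (SD 0.75) in 7 CXB and 0.08 (SD 1.05) in 4 BXH strains, and 32 of 33 BXD strains were higher with ISO. The control level of the members did not pass over families either (0 of 11 probes, against 0.681% of all probes). The smallest unadjusted p-values were those of Socs3 (0.00765, adjusted 0.136) and Il6ra (0.0347, adjusted 0.217). Control levels of Socs3 averaged 7.31 (SD 0.56) in 27 classical and 6.90 (SD 0.35) in 37 BXD strains.

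The level of a member in control hearts was compared with that in ISO hearts over strains. Leaving Il6st aside, 8 of 10 probes passed (adjusted permutation p under 0.05, with Il6st kept in the adjustment). As most control and ISO arrays of a strain shared a BeadChip, these values cannot show whether a strain keeps its level. Pearson's r was between 0.10 and 0.54 and was highest for Stat3 at ILMN_2698046 (r = 0.54, Spearman's rho 0.36, adjusted permutation p = 5.5e-05 and 0.00132), where it fell to 0.34 without the 2 farthest strains. For Ctf1 it was 0.37 (Spearman's rho 0.45, adjusted permutation p = 0.000962 and 0.000147), and 0.41, 0.40 and 0.57 within the sets. Osmr (r = 0.17, adjusted permutation p = 0.131) and Stat3 at ILMN_2589790 (r = 0.10, adjusted permutation p = 0.374) did not pass. For Socs3 it was 0.33 (Spearman's rho 0.27, adjusted permutation p = 0.0033 and 0.0154), but -0.35 within set 3.

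Repeat arrays of the same strain and condition differed more than different strains did for most member probes. The SD between 22 pairs of repeats, 13 of control and 9 of ISO, was 0.47 for Osmr, 0.72 for Socs3, 0.55 for Ctf1 and 1.70 for Il6st, against SDs of 0.37, 0.49, 0.38 and 1.86 between the control levels of strains. Without the repeats on BeadChips 12, 23 and 24 they were 0.49, 0.65, 0.52 and 1.66 (12 pairs). The repeats were closer than the strains for Lifr at ILMN_1242960 (0.37, or 0.24 without those BeadChips, against 0.49) and, only without those BeadChips, for Stat3 at ILMN_3096144 (0.72, or 0.45, against 0.65). They were slightly closer for Il6st, and for Il6ra only with those BeadChips kept (0.26, or 0.30 without them, against 0.27). A difference between 2 single strains of about this size is therefore not beyond the error of a repeat array.

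The responses of the members were compared with each other over the 87 strains, using ILMN_2589790 for Stat3 and ILMN_2829008 for Lifr, their brightest probes. This Stat3 probe was not called with ISO. The called one, ILMN_3096144, ran opposite to it across strains and was not used in these relations. The p-values were adjusted over 21 pairs, and of the 15 without Il6st 12 passed, of which 3 include Il6ra, which was mostly at background. All values share the control and ISO arrays of the strains. The responses of 3 of the 11 member probes, 1 of them the unused ILMN_3096144, also moved with the difference in percent of probes detected. This difference was not taken out here. Strains with a larger rise of Osmr had a larger rise of Stat3 (r = 0.57, Spearman's rho 0.60) and Socs3 (r = 0.42, Spearman's rho 0.45) and a larger fall of Ctf1 (r = -0.56, Spearman's rho -0.54) and Lifr (r = -0.47, Spearman's rho -0.45). The adjusted permutation p-values for r were 4.2e-05, 0.00039, 4.2e-05 and 7e-05, and that for rho was 3.5e-05 in each of these pairs, with 1e-05 the smallest unadjusted p that 100000 permutations can give. Without the 2 strains farthest from the median of Osmr, r was 0.53, 0.41, -0.51 and -0.47.

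Within set 1 of the BeadChips r was nearer to 0, a difference that was not tested. There it was 0.26 for Stat3, -0.04 for Socs3, -0.44 for Ctf1 and -0.13 for Lifr. In set 2 it was 0.62, 0.60, -0.71 and -0.43, and in set 3 0.81, 0.60, -0.64 and -0.74. Lifr fell where Stat3 rose (r = -0.61, Spearman's rho -0.57, and -0.31, -0.41 and -0.85 within the sets) and rose with Ctf1 (r = 0.50, Spearman's rho 0.52, and 0.17, 0.56 and 0.55), each with an adjusted permutation p of 4.2e-05 for r and 3.5e-05 for rho. Stat3 and Socs3 correlated at 0.31 (Spearman's rho 0.31, adjusted permutation p = 0.00826 and 0.0085, and 0.28, 0.22 and 0.37 within the sets).

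**Figure D4:**
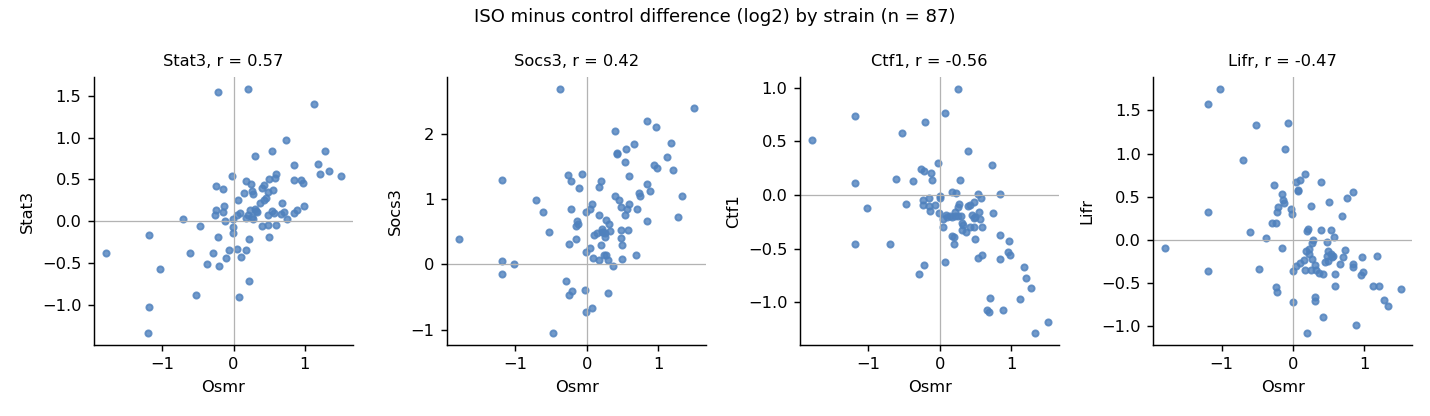
ISO minus control difference in log2 intensity of Osmr (horizontal) against that of Stat3 at ILMN_2589790, Socs3, Ctf1 and Lifr at ILMN_2829008 (vertical), with a point for each of 87 strains and Pearson's r above each panel. The points rise to the right for Stat3 (0.57) and Socs3 (0.42) and fall for Ctf1 (-0.56) and Lifr (-0.47).

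The genes whose responses were most like those of the members were taken by Pearson's r among 10970 detected probes of other named genes, as a description. For Socs3 these were Junb (r = 0.74), a subunit of the AP-1 transcription factor, Timp1 (0.73), an inhibitor of metalloproteinases, and Serpina3n (0.65), an inhibitor of serine proteases, all of which rose with ISO. For Osmr they were Rai14 (0.80), Tshz3 (0.79) and Pros1 (0.77), the anticoagulant protein S, none of which passed (adjusted p-values 0.29, 0.974 and 0.347). For Ctf1 the highest r was that with Ces1d (0.69), a carboxylesterase that was lower with ISO (log2 fold change -0.47, adjusted p-value = 1.15e-08). For Stat3 at ILMN_2589790 it was that with Hyal1 (0.79) and for Lifr at ILMN_2829008 that with Adi1 (0.80), and for Il6ra no gene was above 0.43.

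Among the genes known as STAT3 targets, 13 of 24 measured genes rose with ISO, 1 fell and 10 did not pass, with a median log2 fold change of 0.21 against -0.002 over all probes. Timp1 (1.86, SE 0.15), Serpina3n (1.75, SE 0.17), Junb (0.48, SE 0.06), Fgl2 (0.48, SE 0.06), a prothrombinase of the fibrinogen family, Mt2 (0.58, SE 0.08), a metallothionein, and Saa3 (0.68, SE 0.11), an acute-phase protein, had the smallest adjusted p-values (3.31e-17, 6.72e-14, 4.48e-11, 2.45e-10, 1.35e-08 and 5.42e-07, limma). Vegfa, an angiogenic growth factor, fell by 0.25 (SE 0.06, adjusted p-value = 0.000624). The antiapoptotic genes Mcl1 (-0.04) and Bcl2l1 (0.11) and the kinase Pim1 (-0.02) did not pass, and Myc and Reg3b were detected on under 5% of the arrays. Many of these genes are also raised by other pathways, and the list was chosen with earlier results of these data known. The counts of the list are therefore a description and not a test.

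**Figure D5:**
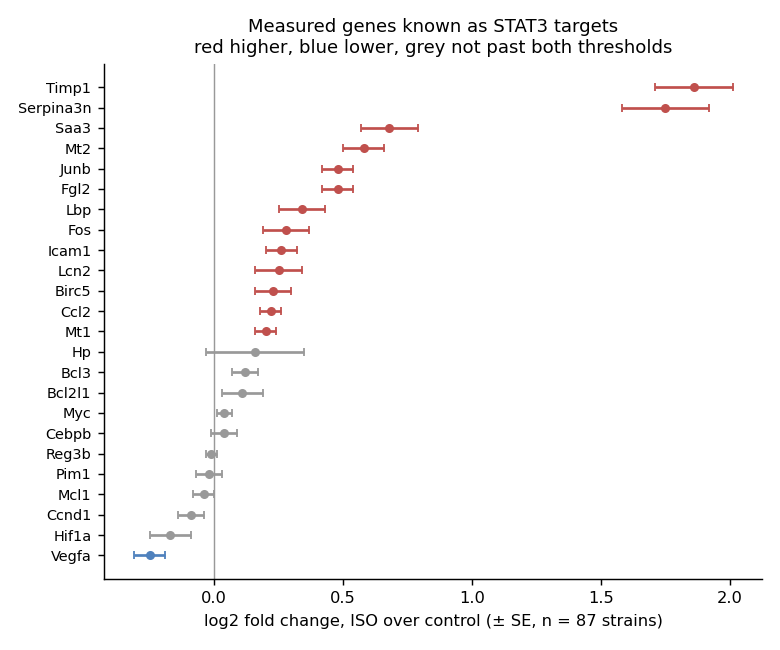
Log2 fold change of ISO over control (± SE over 87 strains) for the 24 measured genes of the list of STAT3 targets, sorted by size and colored red where called higher, blue where called lower and gray otherwise. The called increases run from 0.20 (Mt1) to 1.86 (Timp1), and Vegfa is the only called decrease (-0.25).

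The other genes of the pathway passed in 1 case. None of the 9 measured other ligands passed, and 6 of them (Il6, Lif, Cntf, Clcf1, Ctf2 and Il27) were detected on under 5% of the arrays. Osm, the ligand of OSMR, had a fold change of 0.15 (SE 0.03, adjusted p-value = 0.000505), which is under the fold threshold, and was detected on 20 of the 208 arrays. Neither of 2 other receptors passed, and Il27ra had a fold change of -0.02. Of 9 JAK kinases and other STAT factors, Stat2 was lower (-0.24, SE 0.07, adjusted p-value = 0.00947), and Jak2 had a fold change of 0.10. None of 16 adaptors and inhibitors passed, with fold changes of 0.03 for Socs2 and 0.04 for Cish, the SOCS genes of the STAT5 pathway, and 0.07 for Ptpn11, the phosphatase SHP2.

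Markers of other cells of the heart moved in the same comparison, in which 3.72% of all probes were called higher and 3.53% lower. In the fit of detected probes only, 942 of 11735 probes were called higher and 906 lower. Of the fibroblast markers 8 of 11 rose (median 0.39, mean level of detected markers 8.22 to 10.23 in control and 8.76 to 10.91 in ISO strains), and Postn was detected on under 5% of the arrays. Of the macrophage markers 8 of 11 rose (median 0.40, 6.73 to 9.65 and 7.62 to 10.48), and Itgam was detected on under 5%. Of the ventricular cardiomyocyte markers 0 of 9 passed (median -0.02, 12.54 to 13.39 and 12.07 to 13.34), and of the endothelial cell markers 1 of 9 fell (median -0.08, 9.74 to 11.29 and 8.33 to 10.99). In a whole LV, more cells of a type and more RNA per cell cannot be told apart.

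The responses of the members were set against those of these 4 lists at the same probes, for Stat3 the uncalled ILMN_2589790. Of 28 relations 12 passed, none of them with Il6st. Only some of the 12 are described below, and the relations with the ventricular cardiomyocyte markers are not described. Socs3 rose more in strains where the macrophage markers (r = 0.49, Spearman's rho 0.52, and 0.42, 0.56 and 0.44 within the sets) and the fibroblast markers (r = 0.40, Spearman's rho 0.37, and 0.42, 0.38 and 0.43) rose more. The adjusted permutation p-values were 4.67e-05 and 0.000385 for r and 5.6e-05 and 0.00154 for rho, and without the 2 farthest strains r was 0.46 and 0.41. Osmr went with the fibroblast markers (r = 0.48, Spearman's rho 0.47, adjusted permutation p = 4.67e-05 and 9.33e-05) and the endothelial cell markers (r = 0.52, Spearman's rho 0.53, adjusted permutation p = 4.67e-05 and 5.6e-05). The former was 0.38, 0.60 and -0.06 within the sets and the latter 0.30, 0.40 and 0.71.

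Ctf1 fell more where the fibroblast markers rose more (r = -0.52, Spearman's rho -0.50, adjusted permutation p = 4.67e-05 and 5.6e-05), with -0.44, -0.67 and 0.13 within the sets. Lifr and Stat3 went in opposite directions with the endothelial cell markers, at r = -0.52 (Spearman's rho -0.49) and 0.51 (Spearman's rho 0.52), each with an adjusted permutation p of 4.67e-05 for r and 5.6e-05 for rho. Within the sets these were -0.05, -0.44 and -0.89 for Lifr and 0.24, 0.51 and 0.83 for Stat3. Without the 2 farthest strains r was 0.44 and 0.49 for Osmr, -0.45 for Ctf1, -0.55 for Lifr and 0.45 for Stat3. How much of the change of the members comes with these cells was not tested.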

How the data were processed

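LV RNA of female HMDP mice was hybridized to 208 Illumina MouseRef-8 v2.0 BeadChip arrays of a single color. The authors deposited probe intensity values exported from GenomeStudio 2010.3 before normalization, the detection p-value of each probe against negative controls as deposited from the same software, and deposited log2 values made by the authors with neqc of limma (background correction by controls, quantile normalization). Here the intensities of 25697 gene probes were normalized with neqc (offset 16) of limma 3.58.1 under R 4.3.3, using the detection p-values for the background. Their median absolute difference from the deposited values was 0.00057. The number of arrays limits the precision.

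Repeat arrays within a strain and condition were averaged (93 control and 93 ISO strains, 87 with both). Same-strain control and ISO values deviated together (median r 0.478, over 0.1 in 80 of 87 strains, -0.0195 between strains), and 184 of 196 arrays had their partner on the same BeadChip. ISO was tested by limma with strain as a block, and families and BeadChip sets by moderated F tests. Correlations used 100000 two-sided permutations, with Benjamini-Hochberg adjustment within each family of relations. A strain counted in the set of the fold changes wherever both its conditions were measured, and the F test over sets used its first such set.

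All member probes are named, with up to 6 called genes of a list by p-value, a few uncalled ones for contrast, and the 3 genes most like a member by r (1 for some and none for Il6st). The members and lists were chosen with earlier results of these data known. The strain labels of BeadChips 12, 19, 23 and 24 were put in doubt by those results. Alternatives were an unpaired fit, the deposited values, no background correction, median scaling, detected probes only, BeadChips as blocks, first arrays, same-BeadChip pairs, left-out arrays and BeadChips, single sets and no fold threshold. The test of the sets, the percent of probes detected and the third set without BeadChip 24 were added after seeing the data. The fits and correlations were tested on simulated data.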

Additional observations from a re-analysis of the deposited data

Results flagged for a closer look

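In strain families of 4 to 10 strains, control levels, ISO levels and responses of the member probes were searched for a strain far from the others (Dixon's criterion), and 3 of 66 groups had one. Chance flags about 1 in 20 groups. Among the 7 CXB strains, the response of Il6st in CXB-6/ByJ was -3.90 against -0.09 in the nearest strain, where the level went from the high to the low range (9.01 in control and 5.12 in ISO on BeadChip 19). In the same family the response of Stat3 at ILMN_3096144 was 1.76 in CXBH against 0.40 in the nearest strain. Among the 4 BXH strains, the control level of Lifr at ILMN_1242960 was 4.57 in BXHB2 against 5.28 in the nearest strain. The causes were not tested.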

How the results depend on the processing

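Of the 4 called member probes, the unpaired fit over all 99 strains (no strain block) called 3, as Ctf1 (-0.18) fell short of the fold threshold, and without the block over the 87 paired strains 4 were called. The former turned the fold change of Il6st to 0.03. Without background correction 2 member probes and 734 of all probes were called, as Osmr (0.17) and Ctf1 (-0.14) fell short of the fold threshold. Set 1 of the BeadChips alone called 1 member probe and 551 of all probes, set 3 0 and 6, and set 3 without BeadChip 24 0 and 146, each with fewer strains. With no fold threshold 3892 probes were called in place of 1863 and 4 member probes. Directions turned in set 1 for Osmr (-0.21) and Stat3 at ILMN_2589790 (-0.04), in set 2 for Il6ra (0.01) and Lifr at ILMN_1242960 (-0.03), and in set 3, and there without BeadChip 24, for Il6st (0.56 and 0.47), Il6ra (0.06 and 0.12), Lifr at ILMN_2829015 (0.07 and 0.05) and Stat3 at ILMN_2589790 (-0.02 and -0.03) and ILMN_2698046 (-0.22 and -0.30). Lifr at ILMN_1242960 turned to -0.01 without arrays of low connectivity and -0.02 with the percent of probes detected as a covariate. With only the first array of a strain Osmr (0.19, adjusted p-value = 0.0314, limma) fell short of the fold threshold. Lifr at ILMN_2829008, which had no direction over all strains (0.00), was at -0.10 in set 1, -0.15 in set 2 (adjusted p-value = 0.0328, limma) and 0.51 in set 3. The causes were not tested. Socs3, Ctf1 and Stat3 at ILMN_3096144 kept their direction under every alternative run. Over families no member probe was called under any alternative, while among all probes the responses of 1 (set of BeadChips as a covariate), 30 (without BeadChips 12, 23 and 24), 7 (without arrays of low connectivity) and 6 (difference in percent of probes detected as a covariate) passed in place of 0. The control levels of 1 passed in place of 175 with the set as a covariate, so family and set overlap. Of the relations with the marker lists 20 passed by Spearman's rho in place of 12. Without the arrays of low connectivity 9 of the 21 pairs of members, those with Il6st included, passed in place of 13, and the pair of Stat3 and Socs3 (r = 0.23) did not.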

Other observations

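Of 6 measured neutrophil markers 3 rose with ISO, S100a8 (log2 fold change 0.83, SE 0.16), S100a9 (0.46, SE 0.11) and Retnlg (0.21, SE 0.06), which were detected on 189, 98 and 19 of the 208 arrays, whereas Csf3r (0.07) and Mmp9 (-0.07) did not pass and Cxcr2 was detected on 1 array. Of 7 lymphocyte markers none passed, and Cd4, Cd8a, Cd79a and Ms4a1 were detected on under 5% of the arrays. Among the 8 smooth muscle and pericyte markers Acta2 (0.31, SE 0.06) and Cspg4 (0.31, SE 0.05) rose. The other 6, such as Myh11 (-0.02), Tagln (0.09) and Rgs5 (-0.06), did not pass, and the median of the list was 0.01. Over all probes 3.72% were called higher and 3.53% lower, and in the fit of detected probes only 942 and 906 of 11735. Of 7 measured fast skeletal muscle markers only Mylpf, a light chain of this muscle, was called, and it was lower with ISO (-0.41, SE 0.09). Tnni2 (-0.14), Ckm (-0.05) and Actn3 (-0.01) did not pass, and Tnnt3, Myh4 and Myh1 were detected on under 5% of the arrays.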
